A study of Mus musculus with 28 samples.

Results

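The liver can build the coenzyme NAD+ from the amino acid tryptophan. The first step opens the indole ring of tryptophan and is catalysed by Tdo2, the dioxygenase of hepatocytes, or by its relatives Ido1 and Ido2. Afmid, the arylformamidase, then releases kynurenine. Kmo hydroxylates kynurenine, Kynu cleaves the product to hydroxyanthranilate, and Haao opens the ring of hydroxyanthranilate to aminocarboxymuconate semialdehyde. This semialdehyde closes spontaneously to quinolinate, which Qprt commits to NAD+, unless Acmsd decarboxylates it first and sends it to the glutarate branch. Nmnat1, the nuclear adenylyltransferase, makes the dinucleotide, and Nadsyn1 amidates it to NAD+. SIRT6 is a deacylase that uses NAD+ as a cosubstrate, and the study addressed NAD+ production in mice that overexpress it.

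The 10 genes of this route described here are Tdo2, Ido2, Afmid, Kmo, Kynu, Haao, Acmsd, Qprt, Nmnat1 and Nadsyn1. They were taken from the pathway by name, and all 10 were found by their Ensembl identifier among the 49585 features of the table of liver read counts. The table holds 28 mouse livers, 7 in each of 4 groups. The groups were male wild-type mice (WT), male mice with the Sirt6 transgene (SIRT6-tg), female WT mice and female SIRT6-tg mice. All mice were C57BL/6JOlaHsd, aged 5 to 7 months, group housed on chow and killed in the afternoon after a short fast, and the WT mice were littermates. The SIRT6-tg mice carry the transgene in the whole body and come from a single backcrossed line, and the promoter of the transgene is not given in the sources used here. Each library is 1 mouse, total counts were 18758863 to 35393069 per library, and all 10 genes passed the filter on low counts.

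Sirt6 itself, the targeted gene, was at 1.69 to 3.24 counts per 1000000 reads (CPM) in the 7 male WT livers and at 198 to 358 CPM in the 7 male SIRT6-tg livers. In females it was at 1.81 to 6.21 CPM in WT and at 16.4 to 50.2 CPM in SIRT6-tg livers. CPM values were scaled by the trimmed mean of M values (TMM). Sirt6 was therefore raised in both sexes, with a log2 difference of 6.68 ± 0.30 (SE) in males and 3.39 ± 0.26 in females, and the effect in males exceeded that in females by 3.29 ± 0.35 on the log2 scale (edgeR adjusted p = 6.96e-06). All 15 secreted hepatocyte proteins used to check the tissue were detected, at a summed 130500 to 255400 CPM. Markers of kidney, which also expresses part of this pathway, summed to at most 0.265 CPM in any library.

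The 250 bases upstream of the start that RefSeq gives are shown for 3 members at different points of the route, because Tdo2, Haao and Nmnat1 were all higher in male SIRT6-tg livers. They were read from RefSeq's GRCm38.p6 table of promoters, which holds 8 of the 10 genes, and run 5′ to 3′ on the strand of the gene. Capitals mark matches on either strand to a TATA box, spelled TATAAA, to a CCAAT box, spelled CCAAT, or to GCGTG, the core of the element that the aryl hydrocarbon receptor, a receptor for kynurenine, recognises.
Tdo2: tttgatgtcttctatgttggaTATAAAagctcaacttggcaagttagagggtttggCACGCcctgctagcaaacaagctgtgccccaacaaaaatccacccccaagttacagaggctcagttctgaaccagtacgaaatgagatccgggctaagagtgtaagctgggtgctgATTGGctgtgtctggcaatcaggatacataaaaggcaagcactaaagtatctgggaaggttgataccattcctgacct
Haao: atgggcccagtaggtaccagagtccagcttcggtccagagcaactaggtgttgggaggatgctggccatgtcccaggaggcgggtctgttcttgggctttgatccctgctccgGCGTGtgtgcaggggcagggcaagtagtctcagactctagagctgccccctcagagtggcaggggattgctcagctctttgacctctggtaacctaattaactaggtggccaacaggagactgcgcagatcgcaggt
Nmnat1: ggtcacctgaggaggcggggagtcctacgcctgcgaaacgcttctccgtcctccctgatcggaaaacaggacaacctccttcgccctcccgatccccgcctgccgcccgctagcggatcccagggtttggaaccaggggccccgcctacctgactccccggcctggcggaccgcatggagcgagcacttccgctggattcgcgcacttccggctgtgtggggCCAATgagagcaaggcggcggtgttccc

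These windows lie on the minus strand at chr3:81975729-81975978 for Tdo2, chr17:83846791-83847040 for Haao and chr4:149485173-149485422 for Nmnat1, the second of 2 windows listed for that gene. The string TATAAA in Tdo2 begins 229 bases upstream of the start, and the CCAAT strings begin 78 bases upstream in Tdo2 and 28 bases upstream in Nmnat1. The other window listed for Nmnat1, not shown, held none of the marked strings. These are matches of spelling only, and whether any of them acts in the promoter at its position was not tested. The string TATAAA was found in 12.4% of all 32851 windows of this length, CCAAT in 33.9% and GCGTG in 28.2%. No window of the 8 genes held the string used for HNF1, which occurred in 0.00913% of all windows, CAAAGTCCA for HNF4, which occurred in 0.384%, or TTGCNNAA for C/EBP, which occurred in 9.56%. The windows differ in base composition. Tdo2 holds 3 CpG dinucleotides, Haao 6 and Nmnat1 23, against a median of 6 over all windows. Nadsyn1, the last enzyme, also holds 23, Afmid 15, Qprt 6, Kmo 5 and Acmsd 1. Positions are counted from the RefSeq start, which differs from the outermost start of the gene in Gencode, the annotation used for gene coordinates here. By the latter, the windows of Tdo2, Haao and Kmo lie inside the gene and begin 224, 923 and 11562 bases downstream of its start.

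The levels of the 10 genes differed widely. To compare genes, counts were divided by the length of the merged exons and scaled to a sum of 1000000 in each library (TPM), a scale that is not TMM-adjusted and was used for the order of genes only. In male WT livers the median TPM of Tdo2 was 1053, and the lowest of its 7 libraries, at 908, was above every value of the other genes. Haao followed at 219, Qprt at 215 and Kmo at 145 TPM, and the ranges of neighbours in this order overlapped. Kynu at 81.5 and Ido2 at 45.5 TPM stood apart from their neighbours on both sides. Afmid at 21.5, Nadsyn1 at 20.4, Acmsd at 16.9 and Nmnat1 at 11.8 TPM formed the low end, where each range overlapped the next. The gene with the highest median thus exceeded the lowest 89.5-fold. Divided by the longest coding length instead, this ratio was 108, and Nadsyn1, which has a long coding sequence, took the lowest place at 13.8 TPM.

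**Figure D1:**
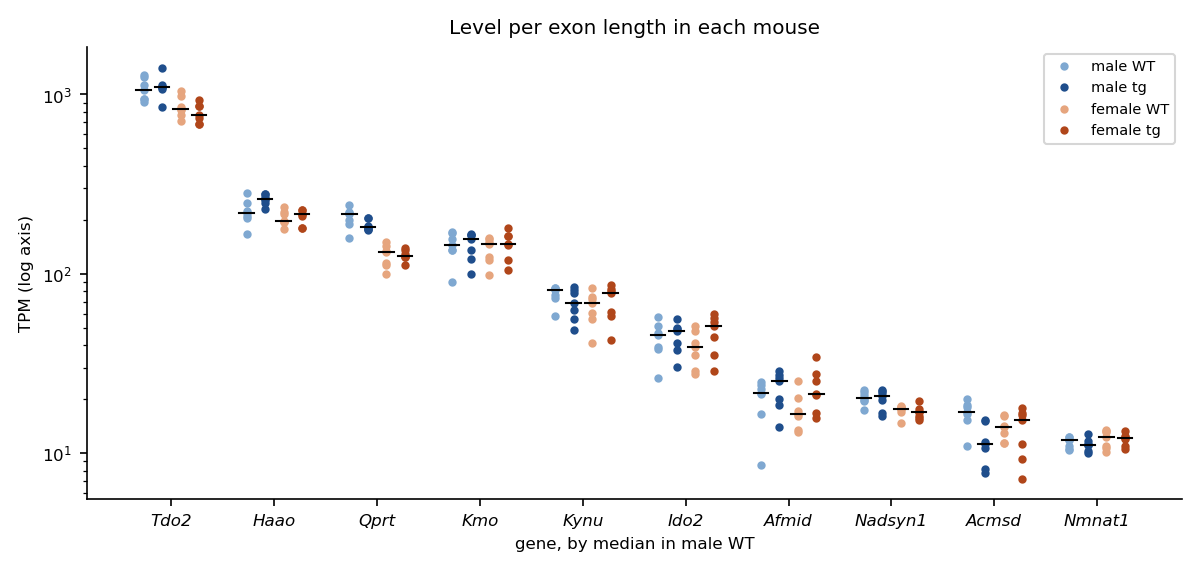
TPM of each gene on a log axis, 1 point per mouse and 7 mice per group, with a bar at the median of each group, and genes ordered by their median in male WT livers. Tdo2 lies above all others in every group, and Qprt lies above Kmo in both male groups and below it in both female groups, where its medians are 133 and 126 TPM.

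In females Kmo, at a median of 148 TPM in WT and 146 TPM in SIRT6-tg livers, lay above Qprt, but the ranges of the pair overlapped in both female groups. In male SIRT6-tg livers the ranges of Haao, Qprt and Kmo were separate from each other in that order, with medians of 260, 182 and 156 TPM. Acmsd and Nmnat1 were neighbours at 11.2 and 11.1 TPM in that group and did not differ beyond their spread. Ido1, the other dioxygenase, and Tph1, the entry to serotonin, did not pass the filter on low counts.

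In males, 7 of the 10 genes were higher in SIRT6-tg than in WT livers and none was lower. They were Tdo2, Ido2, Afmid, Kmo, Haao, Nmnat1 and Nadsyn1, with fold changes of 1.25 to 1.51. Over all 21583 genes tested, 9.68% were called higher and 11.0% lower in this comparison, at an adjusted p under 0.05 in edgeR's quasi-likelihood test. The median log2 difference of the 10 genes was 0.34, beside 0.06 over all genes. These calls depend on how the libraries are scaled, as described after the single genes. In addition, Ido2, Tdo2, Haao and Nmnat1 are named by the study for this pathway, and Haao was among genes it showed from these libraries, so these 4 are not independent of it.

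**Figure D2:**
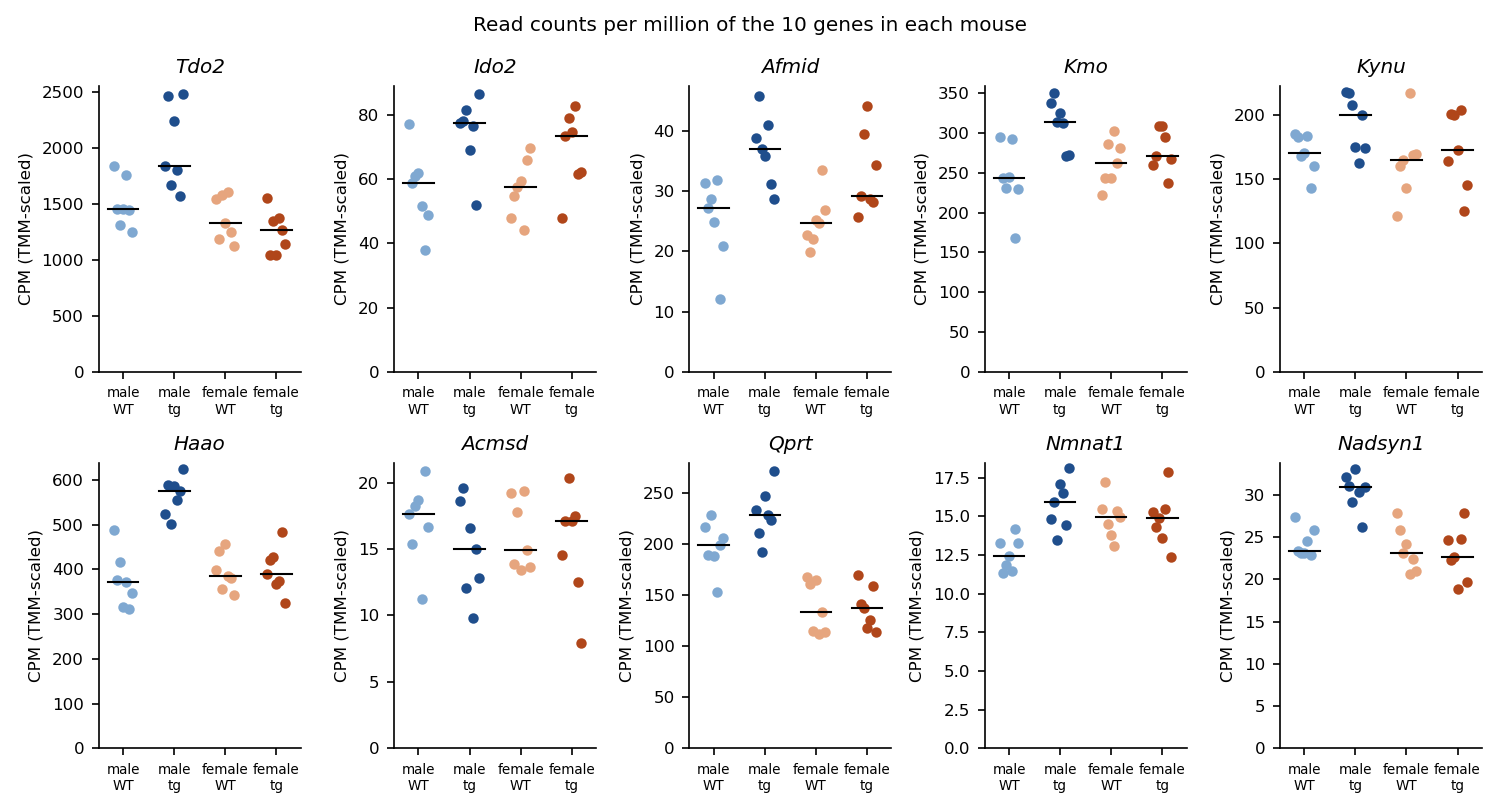
TMM-scaled CPM of each gene, with 1 point per mouse, 7 mice per group and a bar at the median, and with each vertical axis starting at 0. For Haao the 7 male SIRT6-tg points, at 501 to 623 CPM, lie above all male WT points, at 311 to 487 CPM, while the female groups overlap.

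Among the entry enzymes, Tdo2 (chr3:81957090-81976202) ranged from 1250 to 1838 CPM with a median of 1455 in male WT livers and from 1573 to 2478 with a median of 1837 in male SIRT6-tg livers. All 7 SIRT6-tg livers lay above the WT median, and 3 of them above every WT liver. The log2 difference was 0.42 ± 0.12 (SE; 1.34-fold, edgeR adjusted p = 0.0133). Ido2 (chr8:24531892-24576333), the low-affinity relative of Ido1, ranged from 37.97 to 77.2 CPM with a median of 58.9 in WT and from 51.99 to 86.6 with a median of 77.6 in SIRT6-tg livers. Its log2 difference of 0.39 ± 0.14 passed the test narrowly (adjusted p = 0.0394 in edgeR), and the ranges overlapped. When each of the 28 libraries was left out in turn, Ido2 was called in 12 fits, with adjusted p-values of 0.0154 to 0.128 in edgeR.

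Afmid (chr11:117825924-117839908), which releases kynurenine, ranged from 12.1 to 31.9 CPM with a median of 27.2 in male WT livers and from 28.6 to 45.8 with a median of 37.0 in male SIRT6-tg livers, a log2 difference of 0.55 ± 0.16 (1.46-fold, edgeR adjusted p = 0.0138). The lowest WT liver stood well below the other 6, and 5 of the 7 SIRT6-tg livers were above every WT liver. Exons of Afmid overlap those of Tk1, thymidine kinase, on the other strand and those of a readthrough transcript on its own strand. Reads in shared exons may have been dropped or assigned to the neighbour, so the level of Afmid is uncertain.

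Of the next steps of the route, Kmo passed the test and Kynu did not. This does not show that their responses differed, since the ratio of Kynu to Kmo, described below, did not pass in males (exact permutation adjusted p = 0.112). Kmo (chr1:175620381-175662116) ranged from 169 to 295 CPM with a median of 244 in male WT and from 271 to 350 with a median of 313 in male SIRT6-tg livers. The log2 difference was 0.36 ± 0.10 (1.28-fold, edgeR adjusted p = 0.0122), and 5 of the 7 SIRT6-tg livers exceeded every WT liver. Kynu (chr2:43555329-43682715), which acts on the product of Kmo, ranged from 143 to 185 CPM in WT and from 162 to 217 CPM in SIRT6-tg livers. Its log2 difference of 0.18 had a 95% interval from -0.05 to 0.42 and did not pass the test (edgeR adjusted p = 0.279).

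Haao (chr17:83831156-83847963) was the only one of the 10 genes whose TMM-scaled ranges in males did not overlap. In male WT livers it ranged from 311 to 487 CPM with a median of 373, and in male SIRT6-tg livers from 501 to 623 CPM with a median of 576. Among all genes tested, 2.60% were higher without overlap in this comparison. The log2 difference of Haao was 0.59 ± 0.099 (1.51-fold, edgeR adjusted p = 5.22e-05), and it was called in all 28 fits that left out 1 library.

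The enzymes on the branches after Haao, Acmsd for the semialdehyde and Qprt for the quinolinate that forms from it, did not pass the test. Acmsd (chr1:127729413-127767978) ranged from 11.2 to 20.9 CPM with a median of 17.6 in male WT and from 9.82 to 19.6 with a median of 15.0 in male SIRT6-tg livers. Its log2 difference was -0.18, the only negative one of the 10, with a 95% interval from -0.52 to 0.16 (edgeR adjusted p = 0.487). Acmsd was counted 204 to 671 times per library, which gives a counting error of up to 7.00% at the lowest count. Qprt (chr7:127107114-127122226) ranged from 153 to 228 CPM with a median of 199 in WT and from 192 to 272 with a median of 228 in SIRT6-tg livers, a log2 difference of 0.22 with a 95% interval from -0.01 to 0.45 (edgeR adjusted p = 0.182).

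At the end of the route, Nmnat1 (chr4:149467572-149485202) ranged from 11.4 to 14.2 CPM with a median of 12.4 in male WT livers and from 13.5 to 18.1 with a median of 15.9 in male SIRT6-tg livers. The log2 difference was 0.33 ± 0.088 (1.26-fold, edgeR adjusted p = 0.00695). Nadsyn1 (chr7:143795584-143822849) ranged from 22.8 to 27.4 CPM with a median of 23.3 in WT and from 26.2 to 33.1 with a median of 31.0 in SIRT6-tg livers, a log2 difference of 0.32 ± 0.087 (1.25-fold, edgeR adjusted p = 0.00756). In both genes 6 of the 7 SIRT6-tg livers lay above every WT liver, and both were called in all 28 fits that left out 1 library. Without male WT replicate 7 the number of genes called fell from 7 to 3, namely Haao, Nmnat1 and Nadsyn1.

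The number of calls depended on the scaling of the libraries. With the size factors of the relative log expression method (RLE) 6 of the 7 calls were kept, all but Ido2 (edgeR adjusted p = 0.0649), and DESeq2 called 7. With upper-quartile scaling 3 were kept, and further calls were lost with library size alone and with hepatocyte proteins. TMM factors were 1.06 to 1.17 in male WT and 0.821 to 0.993 in male SIRT6-tg livers, without overlap, and 0.906 to 1.06 in females. With library size alone, the median log2 difference of all genes in males shifted from 0.06 to -0.22, and the share of calls that were higher fell from 46.8% to 4.9%. On that scale only Haao was called higher (log2 difference 0.31, edgeR adjusted p = 0.0110), and Acmsd was called lower (-0.47, edgeR adjusted p = 0.0478). Scaled to the secreted hepatocyte proteins, which equalizes their mean level between livers, none of the 10 was called, and Haao had a log2 difference of 0.26 (edgeR adjusted p = 0.157). The median of the 10 genes exceeded the median of all genes by 0.29 with TMM, and by 0.28 with library size alone and with the hepatocyte proteins. A change of scaling moves all genes by nearly the same amount, so this excess could hardly change. It therefore does not show whether the calls hold on another scale.

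**Figure D3:**
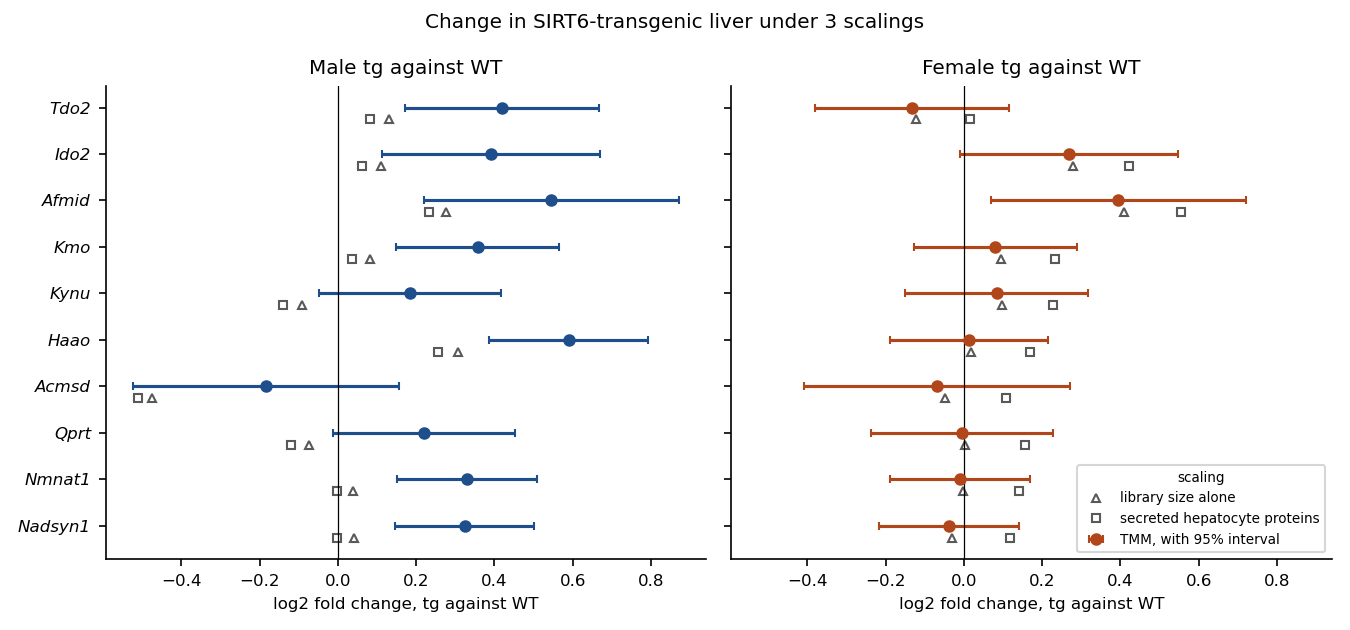
Log2 difference between SIRT6-tg and WT livers of each gene in males (left) and females (right), with 7 mice per group. Filled circles are TMM values with 95% intervals, open triangles use library size alone and open squares use the secreted hepatocyte proteins. In males all points move to the left under these alternative scalings, Kynu and Qprt change sign, and Nmnat1 and Nadsyn1 come to lie at about 0.

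Markers of some other liver cells moved with the male comparison. All 12 macrophage markers and all 10 T-cell markers were lower in male SIRT6-tg than in WT livers, as were 4 of 6 B-cell and 6 of 7 stellate cell markers. Of the 7 markers of sinusoidal endothelium only 1 was lower, and none of the 6 cholangiocyte markers was called. Over all genes tested, 9.68% were called higher and 11.0% lower. The T-cell markers summed to 18.4 to 55.3 CPM in male WT and to 5.71 to 8.71 CPM in male SIRT6-tg livers, and the macrophage markers to 609 to 1955 and to 499 to 848 CPM. Of the secreted hepatocyte proteins, 8 of 15 were higher, with a median log2 difference of 0.37, close to the 0.34 of the 10 genes. No list had a defining marker at 0 in all libraries of a group, apart from the kidney list. The part of cell composition in the differences of the 10 genes was not tested, and in bulk liver fewer cells of a type and less RNA per cell cannot be told apart.

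In females none of the 10 genes was called between SIRT6-tg and WT livers, beside 0.0278% of all genes (6 of 21583) by edgeR. DESeq2 also called none of the 10. At an unadjusted p under 0.05, 1 of the 10 would pass in edgeR, beside 5.62% of all genes. This was Afmid, at 19.9 to 33.5 CPM in WT and 25.7 to 44.1 CPM in SIRT6-tg livers, with a log2 difference of 0.39 (95% interval 0.07 to 0.72, edgeR adjusted p = 0.713). All 7 female SIRT6-tg livers lay above the WT median of Afmid, and 3 lay above every WT liver. Ido2 ranged from 44.3 to 69.7 CPM in female WT and from 48.0 to 82.9 CPM in female SIRT6-tg livers, a log2 difference of 0.27 with an interval from -0.01 to 0.55.

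The other genes called in males had differences of either sign in females. Kmo ranged from 223 to 302 CPM in female WT and from 237 to 309 CPM in female SIRT6-tg livers, a log2 difference of 0.08 with a 95% interval from -0.13 to 0.29. Haao ranged from 342 to 457 CPM with a median of 386 in female WT and from 326 to 482 with a median of 390 in female SIRT6-tg livers. Its log2 difference of 0.01 had a 95% interval from -0.19 to 0.21. For Nmnat1 the difference was -0.01 with an interval from -0.19 to 0.17, and for Nadsyn1 it was -0.04 with an interval from -0.22 to 0.14. Tdo2 ranged from 1121 to 1600 CPM in WT and from 1038 to 1548 CPM in SIRT6-tg females, a difference of -0.13 with an interval from -0.38 to 0.12.

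Whether the response differed between the sexes was tested as an interaction. Of the 10 genes, only Haao passed, with a SIRT6-tg effect that was larger in males by 0.58 ± 0.14 on the log2 scale (95% interval 0.29 to 0.86, edgeR adjusted p = 0.0118). Over all genes 1.20% were called in this direction and 5.04% in either. Tdo2 came next, with a difference between the effects of 0.55 ± 0.17 (edgeR adjusted p = 0.0586), followed by Nadsyn1 at 0.36 ± 0.12 (0.0873) and Nmnat1 at 0.34 ± 0.12 (0.117). Without 1 library, Tdo2 passed in 6 and Nadsyn1 in 1 of 28 fits, and Haao in all 28. The call of Haao was lost with library size alone (0.29, edgeR adjusted p = 0.167) and with the secreted hepatocyte proteins (0.09, edgeR adjusted p = 0.747). For Ido2 and Afmid, the differences between the effects were 0.12 and 0.15, with intervals from -0.27 to 0.51 and from -0.31 to 0.61. The male and female Sirt6 levels also differ, so sex and the amount of Sirt6 cannot be told apart here.

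Between the sexes, Qprt was the member with the clearest difference. In WT mice it ranged from 153 to 228 CPM in males and from 112 to 168 CPM in females, and 6 of the 7 males exceeded every female. The log2 difference was 0.51 ± 0.11 (1.43-fold, edgeR adjusted p = 0.00253), and Qprt was the only one of the 10 called, beside 6.66% of all genes higher and 5.71% lower in males. Nmnat1 pointed the other way, with 11.4 to 14.2 CPM in WT males and 13.1 to 17.2 CPM in WT females, a log2 difference of -0.25 that just missed the threshold (edgeR adjusted p = 0.0594). With library size alone, Tdo2 (0.32, edgeR adjusted p = 0.0272) and Nadsyn1 (0.24, edgeR adjusted p = 0.0352) were also called higher in WT males, and Nmnat1 was at -0.06.

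In SIRT6-tg mice 4 of the 10 genes were higher in males than in females and none was lower, beside 12.9% higher and 10.2% lower over all genes. Qprt differed by 0.74 ± 0.11 (edgeR adjusted p = 2.38e-05), with 192 to 272 CPM in males and 114 to 170 CPM in females. Tdo2 differed by 0.68 ± 0.12 (edgeR adjusted p = 0.000144), Haao by 0.51 ± 0.099 (0.000442) and Nadsyn1 by 0.41 ± 0.088 (0.00108). The ranges of Tdo2, Haao and Qprt did not overlap between the sexes, which held for 3.58% of all genes in this direction. These 4 genes were also called with library size alone, and Qprt and Tdo2 with the secreted hepatocyte proteins.

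Ratios of 2 genes within a liver do not depend on the scaling of the library. They were taken between enzymes at the same step, at neighbouring steps or at branches of the route, and 20 comparisons were tested by exact permutation over mice and adjusted together. The ratio of Haao to Acmsd, the producer and the consumer of the semialdehyde at the branch point, was 1.74-fold higher in male SIRT6-tg than in WT livers (log2 difference 0.80, exact two-sided permutation p = 0.00233, adjusted p = 0.0466). Per kilobase of exon, Haao exceeded Acmsd 9.01- to 20.1-fold with a median of 13.9 in male WT livers, and 17.03- to 34.1-fold with a median of 23.3 in male SIRT6-tg livers. Of the 7 SIRT6-tg livers 5 lay above every WT liver. In 11 of the 28 repeats that left out 1 mouse the adjusted exact p rose above the threshold, to at most 0.0932. These were the repeats without male WT replicate 1, 2, 3, 4, 6 or 7 and without male SIRT6-tg replicate 3, 4, 5, 6 or 7. Leaving out a female could not change the exact p of this male comparison, only its adjustment. Among the repeats without a male, the call was kept only without male WT replicate 5 or male SIRT6-tg replicate 1 or 2. In females the log2 difference was 0.12 (exact permutation p = 0.547), and the difference between the sexes had a permutation p of 0.0505 (adjusted p = 0.112).

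**Figure D4:**
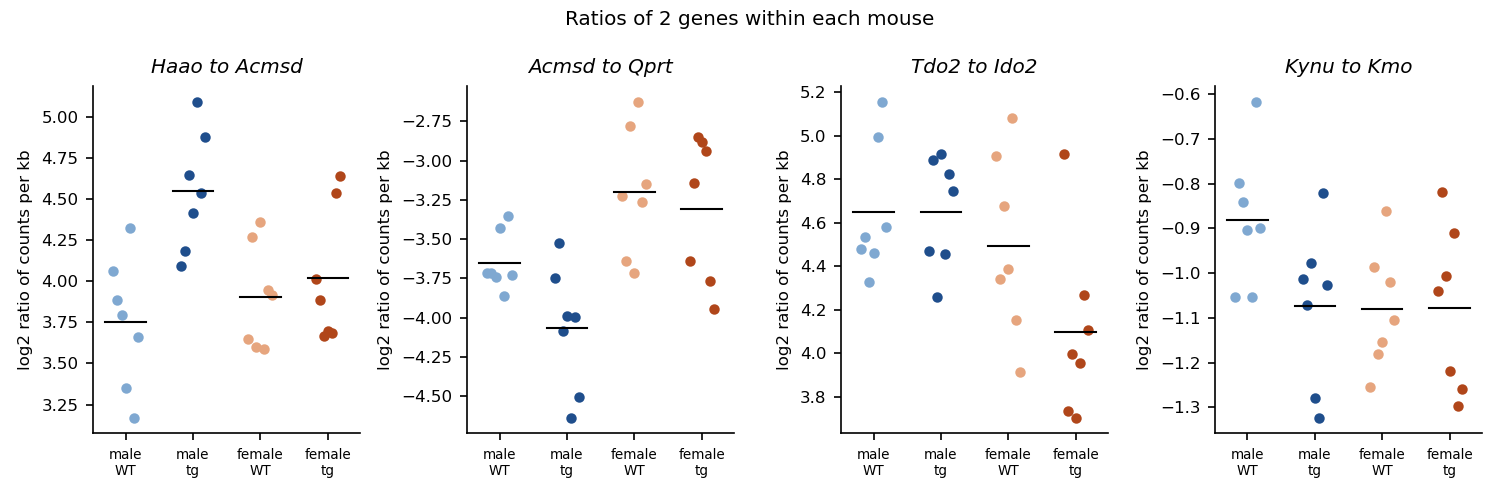
Log2 ratio of the counts per kilobase of 2 genes within each liver, with 1 point per mouse, 7 mice per group and a bar at the mean. The ratio of Haao to Acmsd in male SIRT6-tg livers, at 4.09 to 5.09, overlaps the WT range of 3.17 to 4.33 in 2 livers.

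None of the other 19 comparisons passed after adjustment. The ratio of Acmsd to Qprt, which sets the glutarate branch against NAD+, was lower in male SIRT6-tg than in WT livers by 0.42 on the log2 scale (exact permutation p = 0.0221, adjusted p = 0.0777), and 5 of 7 SIRT6-tg livers lay below every WT liver. It was also lower in males than in females, by 0.45 in WT mice and 0.76 in SIRT6-tg mice (exact permutation p = 0.0192 and p = 0.00932, adjusted p = 0.0777 for both). Tdo2 exceeded Ido2 at a median of 23.2-fold in male WT and 26.8-fold in male SIRT6-tg livers, with a log2 difference in means of 0.00 (exact permutation p = 0.978). In females the medians were 20.9-fold and 15.9-fold, a log2 difference of -0.40 (exact permutation p = 0.0967). The ratio of Kynu to Kmo was lower in male SIRT6-tg livers by 0.19 (exact permutation p = 0.0501).

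Within the SIRT6-tg groups, the level of each gene was compared with that of Sirt6 over 7 mice, separately by sex because the Sirt6 levels of the sexes lie apart. Of 20 relations, 1 passed the adjustment, that of Kmo in females, with Pearson r = -0.96 (exact permutation p = 0.0014, adjusted p = 0.0278) and Spearman rho = -0.93 (exact permutation p = 0.0067, adjusted p = 0.135). Without the 2 mice farthest from the median Sirt6 level, r was -0.92 over 5 mice, and leaving out any 1 of the 7 female SIRT6-tg mice raised the adjusted p above the threshold. In male SIRT6-tg mice the correlation of Kmo with Sirt6 was 0.04 (exact permutation p = 0.937). Ido2 had rho = -0.86 in males and -0.82 in females (exact permutation p = 0.0238 and p = 0.0341, adjusted p = 0.228 for both), with r = -0.39 and -0.77.

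After the group means were removed, the 10 genes did not vary as 1 block between the 28 livers. The correlation was positive for 29 of the 45 pairs, with a median of 0.13. Afmid and Kmo varied most closely together (r = 0.78), followed by Kmo and Kynu (0.68), Nmnat1 and Nadsyn1 (0.65), and Qprt and Nadsyn1 (0.64). Kmo and Qprt, an early and a late enzyme, varied in opposite directions (r = -0.53), as did Kynu and Qprt (-0.50). These are descriptions over libraries that share a scaling, with no test.

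Each of the 10 genes was also set beside the gene most like it over the 28 mice, by Pearson correlation after removal of the group means, among 14038 other genes. Kmo was most like Aldh8a1 (r = 0.90), which oxidises the semialdehyde that Acmsd releases, and is itself an enzyme of kynurenine breakdown. For Afmid it was Slc47a1 (r = 0.92), a transporter of organic cations, and for Qprt it was Mst1 (r = 0.92), a secreted protein of hepatocytes. For Kynu it was Stard13 (r = 0.87), for Haao Kptn (0.85), for Ido2 9430015G10Rik (0.80), for Nmnat1 Tha1 (0.80), the threonine aldolase gene, and for Nadsyn1 Ptges2 (0.79). Tdo2 and Acmsd had the weakest best matches, Cep63 (0.74) and Cdh1 (0.73). Each match is the highest of 14038 correlations, which by itself favours a high r, and none was tested.

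Some neighbouring genes of the pathway also differed. Of the side branches and the glutarate branch, 8 of 10 listed genes passed the filter, and 5 were higher and none lower in male SIRT6-tg livers. Over all genes tested, 9.68% were called higher and 11.0% lower in this comparison. These calls, and those of the lists below, were made with TMM, and their values on other scales are not given here. With library size alone the median log2 difference of all genes in males shifted from 0.06 to -0.22, so the smaller differences may depend on the scaling. Maoa, the monoamine oxidase, differed by 0.62 (edgeR adjusted p = 6.56e-07), and Aadat, an aminotransferase that turns kynurenine into kynurenic acid, by 0.55 (edgeR adjusted p = 5.83e-05). Gcdh, the glutaryl-CoA dehydrogenase, differed by 0.54, and the aminotransferases Got2 and Kyat1 by 0.36 and 0.41. Aadat and Gcdh are among the genes the study showed from these libraries. For Maoa the SIRT6-tg effect in males exceeded that in females by 0.57 (edgeR adjusted p = 0.00207), and for Gcdh by 0.47 (edgeR adjusted p = 0.0281).

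Of 6 listed genes of large neutral and aromatic amino acid transport, none was higher and 2 were lower in male SIRT6-tg livers. The shares over all genes given above apply to this list and the next. Slc7a8 differed by -1.25 (edgeR adjusted p = 0.000315) and Slc43a2 by -0.74 (edgeR adjusted p = 0.000513). Of the other genes of NAD+ synthesis and use, 9 of 10 passed the filter, with 3 higher and none lower. They were Naprt, the entry of nicotinic acid (0.57, edgeR adjusted p = 0.0176), Nmnat3 (0.49, edgeR adjusted p = 0.0358), a mitochondrial relative of Nmnat1, and Nadk2, the mitochondrial NAD kinase (0.31, edgeR adjusted p = 0.0210). In females no gene of these 3 lists was called by edgeR, and Aadat had the lowest p, with a log2 difference of 0.36 (unadjusted p = 0.000593, edgeR adjusted p = 0.246). Nnmt, which methylates nicotinamide, was at -0.77 in females (unadjusted p = 0.0261, edgeR adjusted p = 0.784).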

How the data were processed

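RNA of 28 livers was sequenced single-end on an Illumina HiSeq from NEBNext Ultra libraries. The authors aligned reads to mm10 with STAR 2.5.0a, counted unique reads on Gencode vM12 genes with HTSeq-count 0.6.1, and deposited raw read counts per gene without normalization. The strand setting of the counting is not given in the sources used here, so counts of overlapping genes are uncertain. The number of columns left unmapped was 0. Symbols, positions and lengths came from Gencode vM21 (GRCm38), in which 43749 of 49585 identifiers have the same version. No 2 libraries of a group agreed within sampling noise.

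Genes with a mean of at least 0.5 counts after scaling by DESeq2 size factors were kept (21583). Counts were scaled by TMM and tested with the robust quasi-likelihood F-test of edgeR 4.0.16 (R 4.3.3) in 1 fit with 4 group means, with Benjamini-Hochberg adjustment over all genes and a threshold of 0.05. The scripts were tested on simulated data. Ratios and correlations were tested by exact permutation, or 100000 resamples for differences between the sexes, in scipy 1.17.1. Alternatives were RLE, upper-quartile, library-size and hepatocyte scaling, 2 other filters, DESeq2 1.42.0, 2 surrogate variables (sva 3.50.0), each pair of groups alone, the replicate number as a block, and leaving out each library.

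The 10 genes and all lists were chosen with earlier results of these data known. All 10 are named, with Sirt6, overlapping genes, the gene most like each member, and from each list up to 5 genes (2 for regulated lists) by adjusted p, except 1 gene that is not reported here. Replicates are separate mice.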

Additional observations from a re-analysis of the deposited data

Results flagged for a closer look

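The SIRT6-tg effect differed between males and females, by the interaction test of edgeR, for Haao (0.58 on the log2 scale, larger in males) and for the targeted gene Sirt6 (3.29). In the related lists it also differed for Maoa (0.57), Gcdh (0.47) and Slc7a8 (-1.22, the larger decrease being in males). All these values are with TMM. The call of Haao was lost with library size alone and with the secreted hepatocyte proteins, and the other genes are not given on those scales. Among 60 groups of 7 values examined for a single value far from the rest, 2 stood out, both of Sirt6. The lowest male WT liver was at 1.69 CPM, where the next was at 2.65, and the highest female WT liver was at 6.21 CPM, where the next was at 2.94. Chance alone gives about 1 in 20 groups, so 2 of 60 is not more than chance gives. No value of the 10 pathway genes stood out in this way.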

How the results depend on the processing

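The number of the 10 genes called in males was 7 in the reported fit. It was 3 with upper-quartile scaling (Afmid, Haao and Kmo), 2 with library size alone and 0 with the secreted hepatocyte proteins, where Nmnat1 and Nadsyn1 changed sign to -0.0026 and -0.0014. The other 7 settings gave 5 to 9, and leaving out each library gave 3 to 7, the lowest without male WT replicate 7. In females every setting and every library left out gave 0. For the difference between the sexes the number was 1, with 0 under library size alone and under hepatocyte proteins, 2 with the filter filterByExpr (Haao and Tdo2) and with DESeq2 (Haao and Tdo2), 4 with 2 surrogate variables, and 1 to 2 when each library was left out. Between WT males and females it was 1, with 3 under library size alone and under hepatocyte proteins, 2 with filterByExpr, 2 surrogate variables or DESeq2, and 1 to 2 when each library was left out. Between SIRT6-tg males and females it was 4, with 2 under hepatocyte proteins, 6 with 2 surrogate variables (Kmo and Kynu in addition) and 4 when each library was left out. For these settings the cause was not tested.

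Replicate numbers did not pair the mice, since at most 4 of 7 same-numbered pairs correlated above 0.1 between any 2 groups and at most 1 of 7 mice correlated best with its own number. With the number as a block, 6 genes were called in males (Ido2 had an edgeR adjusted p of 0.0524), the other counts did not change, and none of the 20 ratio comparisons passed, where 1 did without the block (the adjusted exact p of Haao to Acmsd became 0.117, with a smallest possible p of 0.0156 before adjustment). When each mouse was left out, 0 to 3 ratio comparisons passed. The number of correlations with Sirt6 that passed was 1, with 0 without the 2 mice farthest from the median Sirt6 level and 0 to 1 when each mouse was left out. Fewer mice allow fewer distinct permutations.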

Other observations

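Tdo2 is known as a glucocorticoid-induced gene of hepatocytes, and Acmsd as a gene that agonists of PPAR-alpha repress. Acmsd itself was not called in either sex by edgeR with TMM. The part of either regulator in the differences of the pathway genes was not tested, and the lists below are given as descriptions. None of 10 glucocorticoid-induced genes was called in males or females by edgeR, with median log2 differences between SIRT6-tg and WT livers of -0.21 and -0.31. The lowest p in males was that of Mt2, a metallothionein (-1.71, edgeR adjusted p = 0.0772). Of 11 targets of PPAR-alpha, 3 were higher and none lower in male SIRT6-tg livers, beside 9.68% and 11.0% of all genes. The median of the 11 was 0.44. Among the 3 higher ones was Acaa1b, a peroxisomal thiolase (0.89, edgeR adjusted p = 0.000104). None of the 11 was called in females by edgeR, where the median was 0.24 and the unadjusted p of Acaa1b was 0.0170.

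Between WT males and females, 6 of these 11 targets were lower in males and none was higher, beside 5.71% and 6.66% of all genes. Among the 6 was Vnn1 (-1.62, edgeR adjusted p = 0.000206). Of the 10 glucocorticoid-induced genes, 2 were lower in WT males and none was higher. They were Mt1 (-2.31, edgeR adjusted p = 0.00238) and Mt2 (-2.96, edgeR adjusted p = 0.00265). Of the side branches, Maoa (-0.75, edgeR adjusted p = 3.75e-08), Kyat3 (-0.75, edgeR adjusted p = 0.00197) and Aadat (-0.32, edgeR adjusted p = 0.0205) were lower in WT males, and Nadk was lower by edgeR as well (-0.34, adjusted p = 0.0110).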
